A study of Homo sapiens with 5 samples.

Results

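The NBPF, GOLGA6, GOLGA8 and USP17L genes are families of near-identical copies that lie in segmental duplications of the human genome. Members were taken by symbol from the RefSeq protein-coding genes of chromosomes 1 to 22 (GRCh38), which gave 68 of 19126 genes: 14 NBPF genes, 15 GOLGA6 genes, 14 GOLGA8 genes and 25 USP17L genes. The measurement was chromatin immunoprecipitation with sequencing (ChIP-seq) of trimethylated histone H3 lysine 9 (H3K9me3) in cells of HEK293T, an established line of human embryonic kidney origin that carries the SV40 large T antigen. The labelled H3K9me3 libraries are KD, from cells with KCNQ1OT1 knocked down, WT, labelled with nothing more, and EV, read here as the empty-vector control. Inputs are labelled for WT and EV. KCNQ1OT1 is a long non-coding RNA of an imprinted domain on chromosome 11, and the target of KD is written with a suffix, K, of a meaning not given in the sources used here. How KD was made is not stated there, nor whether KD and EV are single clones. With 1 library per group, no difference between KD and EV could be checked against replicates or tested.

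H3K9me3 marks heterochromatin. It is written by methyltransferases such as SETDB1 and SUV39H1, bound by HP1 proteins, and concentrated over satellites, retrotransposons and many tandemly repeated genes. NBPF genes, the neuroblastoma breakpoint family, carry repeated Olduvai (DUF1220) domains whose number grew in the human lineage. GOLGA6 and GOLGA8 genes are relatives of GOLGA2, which encodes the Golgi matrix golgin GM130, and were spread over chromosome 15 with its duplications. USP17L genes are intronless and encode deubiquitinating enzymes of the USP17 (DUB) family, which are induced by cytokines and act on cell growth. The USP17L copies of chromosome 4 belong to the tandem array known as RS447, whose copy number differs between people. The copy number in these HEK293T cells was not measured here.

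Peaks, not reads, were deposited, as 3 lists. The names of 2 lists carry KD and EV. The name of the remaining list carries none, so it was given to no sample and is called the list without genotype. On chromosomes 1 to 22 the KD list held 12081 peaks over 19.9 Mb, the EV list 23245 peaks over 48.7 Mb, and the list without genotype 13242 peaks over 28.3 Mb. Outside the numbered and sex chromosomes the lists held 805 peaks in KD, 1699 in EV and 853 in the list without genotype. Read depth behind the lists is unknown, and a less deeply sequenced library gives fewer and narrower peaks. Copies that are nearly identical share reads, and no label names the filter on reads that match several places. The values of a single copy are therefore uncertain throughout. RNA was not part of these files, so neither the knockdown nor the cell line's markers could be checked.

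H3K9me3 peaks lay over the USP17L genes of chromosome 4 and, more sparsely, over NBPF genes of chromosome 1, while the USP17L genes of chromosome 8 and the GOLGA6 genes carried none in any list. Of the 68 members, 12 (17.6%, exact Clopper-Pearson 95% interval 9.47 to 28.8) had 10% or more of the gene body under peaks in KD and 17 (25%, interval 15.3 to 37.0) in EV. The same criterion was met by 1.43% of all protein-coding genes in KD and by 2.62% in EV. In the list without genotype 12 members met it, against 0.742% of all protein-coding genes. All 12 members in KD, 15 of the 17 in EV and all 12 in the list without genotype were USP17L genes of chromosome 4. With any overlap of at least 1 bp, 22 members had a peak in KD and 22 in EV, against 11.3% and 24.4% of all protein-coding genes, and 15 had one in the list without genotype, against 7.18%. Intervals cover counting over genes, and neighbouring copies are not independent.

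Short genes fit inside 1 peak, so USP17L genes, which are mostly 1593 bp long, were also set beside the 1288 protein-coding genes of 1 to 3 kb. There the 10% criterion was met by 6.68% of genes in KD, 6.29% in EV and 2.56% in the list without genotype. Of the 25 USP17L genes it was met by 12 in KD (48.0%, interval 27.8 to 68.7), 15 in EV (60%, interval 38.7 to 78.9) and 12 in the list without genotype. Any overlap was found for 14 USP17L genes in KD, 15 in EV and 13 in the list without genotype, against 7.07%, 6.44% and 2.87% of the genes of 1 to 3 kb in those lists.

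Over merged gene bodies, peaks covered 1.49% of the members in KD and 4.43% in EV, which makes 0.336 for the KD/EV ratio of covered length. For all protein-coding genes it was 0.291. The families differed in this ratio: it was 0.626 for USP17L and 0.210 for NBPF. For protein-coding genes of 1 to 3 kb it was 0.881. The list without genotype covered 0.902% of the members' bodies. Of its covered length in members, 11.8 kb lay in USP17L genes.

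**Figure D1:**
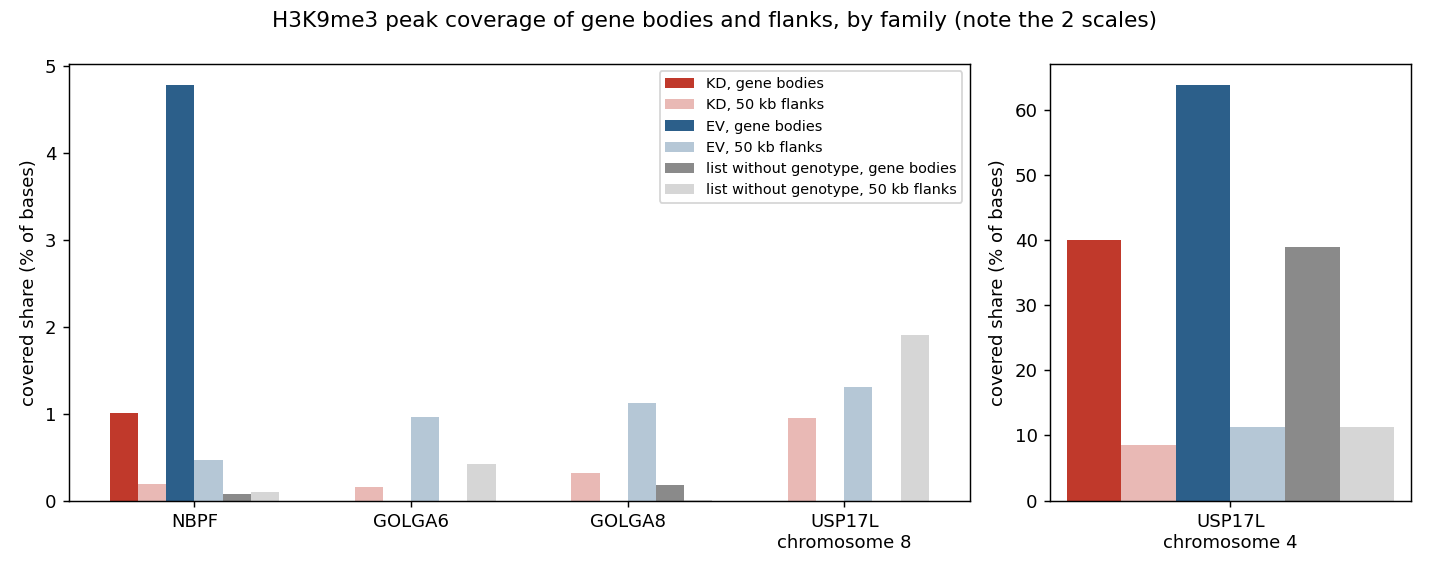
Covered share, in percent of bases, of gene bodies (full colour) and of the 50 kb on both sides without member bodies (pale) for each family, with KD in red, EV in blue and the list without genotype in grey, 1 list each. The right panel has its own scale: USP17L bodies of chromosome 4 stood at 39.9% in KD, 63.8% in EV and 38.9% in the list without genotype, while no NBPF or GOLGA bar passed 5%.

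The chromosome 4 array of USP17L genes runs from 9210657 to 9369070 and holds 23 annotated copies, 19 of them protein-coding and 4 pseudogenes. Copies start every 4746 bp (median of 21 spacings, 4647 to 4847), apart from a stretch of 57546 bp between the starts of USP17L22 and USP17L24. Peaks covered 19.7% of the whole span in KD, 27.9% in EV and 23.5% in the list without genotype. In the 100 kb on each side of the array the shares were 0% in KD, 0.588% in EV and 0% in the list without genotype. Within the array, the annotated copies were covered to 42.2% in KD and 67.4% in EV, and the sequence between neighbouring copies to 20.03% in KD and 24.5% in EV. In the list without genotype copies and the sequence between them were closer, at 37.4% and 31.5%. The stretch without annotated copies stood at 4.88% in KD, 6.73% in EV and 5.04% in the list without genotype. How much of this stretch holds assembled sequence, where reads can align, was not checked. Its low shares therefore cannot be read as weaker marking, and the shares of the whole span include it.

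**Figure D2:**
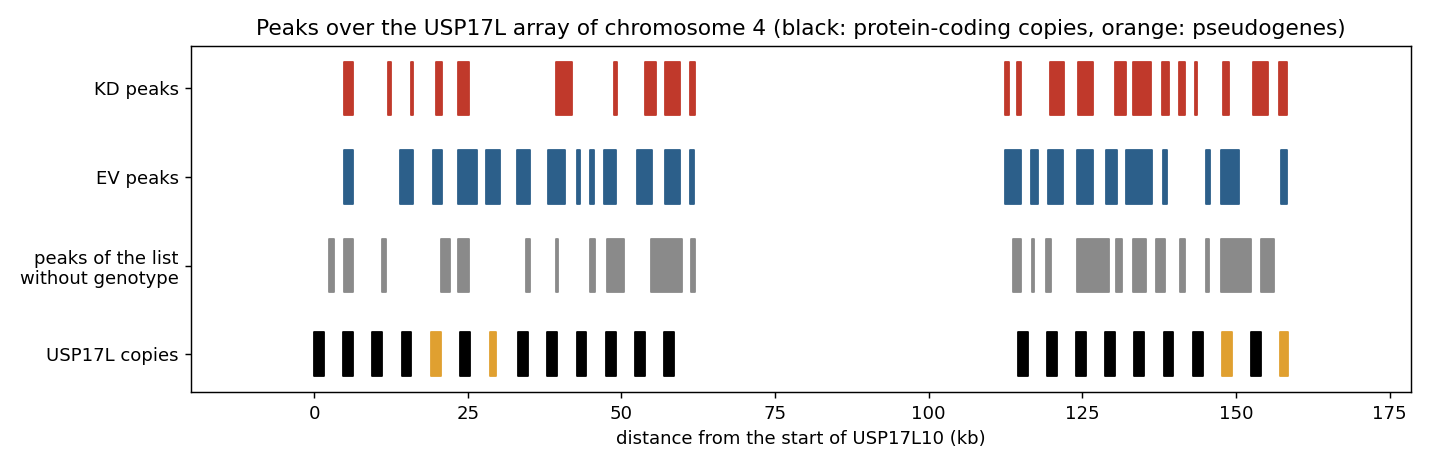
Peaks of KD (red), EV (blue) and the list without genotype (grey) along the USP17L array of chromosome 4, with distance from the start of USP17L10 in kb on the horizontal axis and annotated copies in the bottom row (black protein-coding, orange pseudogenes). The KD list had 22 peaks in the array, the EV list 23 and the list without genotype 22, on both sides of the stretch without annotated copies.

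Several copies were covered alike in all lists. USP17L27 was covered to 100% in KD, 100% in EV and 100% in the list without genotype. USP17L11 had 90.5% in KD, 91.6% in EV and 94.9% in the list without genotype, from a single peak in each. That peak ran from 9215557 to 9217010 in KD, from 9215539 to 9217043 in EV and from 9215486 to 9217052 in the list without genotype, so its edges lay close together. The fold enrichment of this peak, each value being the authors' own for its list, was 3.31 in KD, 3.46 in EV and 2.82 in the list without genotype. USP17L15 (90.1% in KD, 100% in EV), USP17L22 (86.7% and 91.8%) and USP17L26 (82.7% and 88.0%) were likewise covered over most of the body in both. USP17L24 had 34.5% in KD and 32.7% in EV. In the list without genotype USP17L15 had 91.5%, USP17L22 had 100%, USP17L26 had 89.4% and USP17L24 had 34.8%.

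Other copies differed between the lists, most of them widely. USP17L25 had 73.7% in KD, 86.6% in EV and 42.8% in the list without genotype. USP17L13 had 0.0628% in KD, where a peak touched its last base, and 100% in EV. USP17L17, USP17L19 and USP17L21 had no peak in KD, against 100%, 30.9% and 76.0% in EV. USP17L5 had 1.26% in KD and 89.6% in EV, USP17L18 had 13.9% and 92.7%, and USP17L20 had 19.8% and 100%. The KD peaks at USP17L13, USP17L18, USP17L20 and USP17L5 began near the end of the gene and ran past it. Near the end of the array 3 copies went the other way: USP17L30 had 83.6% in KD and none in EV, USP17L28 had 58.8% in KD and 30.5% in EV, and USP17L29 had 20.9% in KD and none in EV. USP17L10 and USP17L12 had no peak in KD or EV. In the list without genotype USP17L20 stood at 91.3%, USP17L5 at 33.0%, USP17L17 at 22.8%, USP17L28 at 18.8%, USP17L18 at 14.9% and USP17L12 at 1.88%. There USP17L10, USP17L13, USP17L19, USP17L21, USP17L29 and USP17L30 had no peak, so this list matched neither KD nor EV copy by copy.

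Of the 19 protein-coding copies, 8 were lower in KD than in EV by at least 10 percentage points and 3 were higher by as much. Over all protein-coding genes 1.57% were lower and 0.424% higher by this measure, and over those of 1 to 3 kb 3.26% and 2.95%. Only genes with a peak can differ, and 1174 of the 1288 genes of 1 to 3 kb had none in KD or EV. Among the rest of these short genes 42 were lower by 10 points and 38 higher. Of the 19 copies 2 had no peak in KD or EV. The 10% criterion was met in both lists by 10 copies, which is 10 of 12 in KD and 10 of 15 in EV, and all 10 also met it in the list without genotype. The parts of the array before and after the wide stretch differed in this comparison. Among the 11 protein-coding copies before the wide stretch the mean covered share was 27.4% in KD and 71.2% in EV, and 6 copies were lower in KD by 10 points. Among the 8 copies after it the mean was 56.9% in KD and 53.4% in EV, with 2 copies lower in KD and 3 higher. These counts over copies are descriptions of 1 library each, since reads may be assigned to any of several alike copies.

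**Figure D3:**
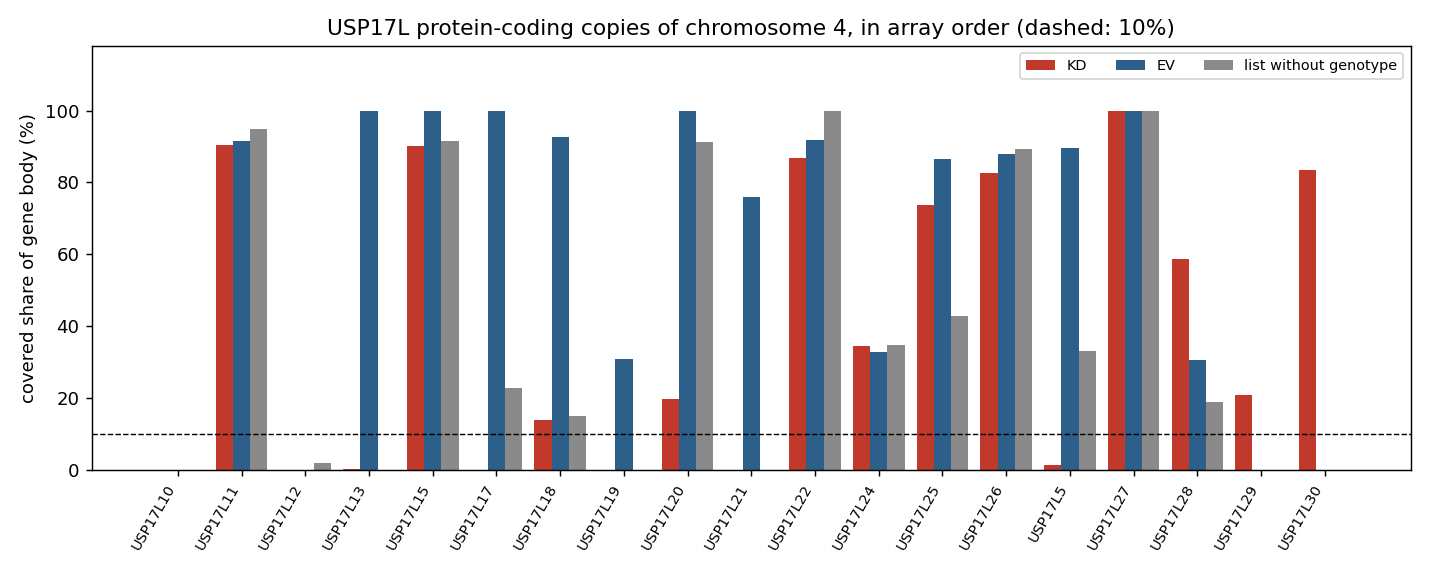
Covered share of the gene body, in percent, of the 19 protein-coding USP17L copies of chromosome 4 in array order, with a bar for KD (red, left), EV (blue) and the list without genotype (grey); the dashed line marks 10%. USP17L11, USP17L15, USP17L22, USP17L26 and USP17L27 are above 80% in all 3 lists, while USP17L13, USP17L17 and USP17L5 are high in EV and near 0 in KD.

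The pseudogene copies of the array, which are outside the member rule, were marked as well. USP17L14P had 51.7% in KD and 76.1% in EV, USP17L9P had 66.2% and 100%, and USP17L6P had 91.2% and 76.9%. USP17L16P had no peak in KD and was covered fully in EV.

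In KD and EV, peaks lay over the gene body of a copy more often than over the sequence just before it. Counted from the annotated start (the lower coordinate) of each of the 23 copies, KD peaks covered most copies, 52.2%, at offsets of 420 to 540 bp. EV peaks covered most, 82.6%, at 390 to 480 bp. At 1000 bp before the start the shares were 4.35% in KD and 8.70% in EV. The sequence after the body was not bare: at 1700 bp the shares were 47.8% in KD and 60.9% in EV. At 2500 bp they were 34.8% in KD and 47.8% in EV. The list without genotype was flatter, from 17.4% of copies to 56.5%, and its highest share lay beyond the gene, at 2640 to 2650 bp. Between 100 and 450 bp after the nearest copy start, a window of 7.40% of the median spacing, began 7 of the 22 KD peaks, 10 of the 23 EV peaks and 2 of the 22 peaks of the list without genotype. This window was set after the peak starts were seen and is a description.

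**Figure D4:**
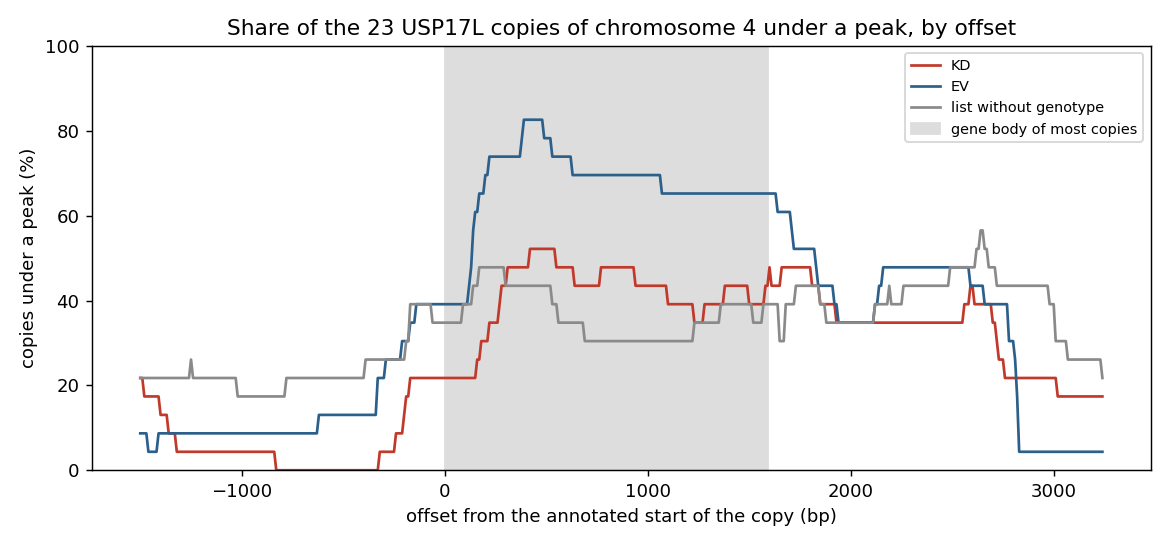
Percent of the 23 annotated USP17L copies of chromosome 4 that lie under a peak at each offset from the copy's start in bp, for KD (red), EV (blue) and the list without genotype (grey), with the 1593 bp body of most copies shaded. EV reaches 82.6% and KD 52.2% inside the body, and both are under 10% of copies at 1000 bp before it.

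The USP17L peaks were of middling strength in their own lists. Among the 14 KD peaks that touch USP17L members the median −log10 p was 4.99, at percentile 50.5 of the KD list, and the highest was 11.9, at USP17L20. Among the 15 EV peaks the median was 5.72, at percentile 63.5 of the EV list, and the highest was 9.32, at USP17L11. An EV peak overlapped 12 of the KD peaks (85.7%, interval 57.2 to 98.2), and a KD peak overlapped 13 of the EV peaks (86.7%, interval 59.5 to 98.3). Over all peaks in protein-coding genes these shares were 78.3% of KD peaks and 27.9% of EV peaks. Overlap at USP17L was common in both directions, although the covered bases of single copies differed. Peaks were dense there, over 19.7% of the array span in KD and 27.9% in EV. Of all protein-coding gene bodies, peaks covered 0.199% in KD and 0.682% in EV. Dense peaks meet by 1 bp more easily, and the part of density in this overlap was not tested.

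The KD/EV order at USP17L turned with a limit on fold enrichment and not with limits on −log10 q. At a −log10 q of at least 2, peaks covered 19.4% of the USP17L bodies in KD and 39.6% in EV, and at 3 or more, 8.60% in KD and 26.6% in EV. With peaks of at least 3-fold enrichment alone, 19.1% of the USP17L bodies were covered in KD and 18.2% in EV, and the 10% criterion was met by 8 copies in KD and 5 in EV. In the list without genotype no USP17L peak reached that enrichment. How the enrichments of the lists are scaled to each other is not known.

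The 6 USP17L genes of chromosome 8 had no peak over the body in KD, EV or the list without genotype. They include USP17L2, which encodes DUB3, a deubiquitinase known to stabilise the cell cycle phosphatase CDC25A. With 0 of 6 genes, the exact interval reaches 45.9%. The nearest KD peak lay 42.0 kb from USP17L3, and from USP17L7 and USP17L2 it was 337 and 341 kb away. The nearest EV peak lay 36.5 kb from USP17L1. In the 50 kb around the chromosome 8 copies the covered share was 0.947% in KD, 1.31% in EV and 1.90% in the list without genotype.

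Among the NBPF genes peaks were far sparser, and most of the coverage belonged to EV. Of 14 members none met the 10% criterion in KD and 2 did in EV, NBPF19 and NBPF10, while 1.43% of all protein-coding genes did in KD and 2.62% in EV. For genes of 5 kb or more, which all NBPF genes are, those shares were 0.575% and 1.98%. Any peak was found in 8 of the 14 in KD and in 7 in EV, against 11.3% and 24.4% of all protein-coding genes. For genes of 5 kb or more the shares with any peak were 12.2% and 27.6%. Longer genes are touched by a peak more easily, and these shares were not matched for length. The median length was 53008 bp for NBPF genes and 32740.5 bp for genes of 5 kb or more. NBPF19 had no KD peak and was covered to 15.7% in EV by 7 peaks. NBPF10 had 2.498% in KD from 2 peaks and 12.6% in EV from 9 peaks. NBPF20 had 0.218% in KD from 1 peak and 7.66% in EV from 9 peaks, and NBPF14 had 3.77% and 5.72% from 3 peaks in each. These 4 genes of the long arm of chromosome 1 held 6 of the 11 KD peaks of the family and 28 of the 32 EV peaks. Over their bodies together the covered share was 1.31% in KD and 10.2% in EV, and the list without genotype had no peak in them. These genes were grouped after their peaks were seen, so the contrast follows in part from the choice. Across all 14 NBPF genes, 7 were less covered in KD than in EV and 3 more. Over all 19126 protein-coding genes these counts were 4367 and 593.

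Near-identical sequence was found at start windows of NBPF10 and NBPF14, while the sequence under their peaks was not compared. RefSeq start windows (250 bases before to 50 after the start, GRCh38.p14) were found for 40 of the 68 members. An ungapped stretch shared by windows of NBPF10 and NBPF14 spans 265 bases and differs at 1 base, shown in capitals. It lies at chr1:146144755-146145019 for NBPF10 and chr1:148595703-148595967 for NBPF14, both on the minus strand, and shows how alike 2 copies with different peak numbers can be:
NBPF10: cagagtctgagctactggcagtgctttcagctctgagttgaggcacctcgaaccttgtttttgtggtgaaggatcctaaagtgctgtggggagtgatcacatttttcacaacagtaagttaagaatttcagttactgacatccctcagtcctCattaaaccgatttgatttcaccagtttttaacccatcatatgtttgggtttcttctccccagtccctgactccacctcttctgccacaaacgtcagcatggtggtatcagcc
NBPF14: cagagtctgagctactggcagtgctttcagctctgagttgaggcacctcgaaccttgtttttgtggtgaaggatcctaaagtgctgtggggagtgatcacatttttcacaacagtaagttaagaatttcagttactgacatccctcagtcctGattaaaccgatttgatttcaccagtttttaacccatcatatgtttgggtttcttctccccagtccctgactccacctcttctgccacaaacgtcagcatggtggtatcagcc

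None of the 12 NBPF start windows held a peak in any list, and NBPF20 and NBPF26 had no window. Peaks were counted for a gene if they touched its body, and those of NBPF10, NBPF14 and NBPF19 lay wholly within it. In EV, neighbouring peak starts in NBPF10 were 5.35 kb apart in the median (4.52 to 10.1 kb, 9 peaks). In NBPF19 they were 6.90 kb apart (3.62 to 19.3 kb, 7 peaks), and in NBPF20 9.44 kb apart (4.06 to 24.4 kb, 9 peaks). The widest EV peak of these genes was 3375 bp, in NBPF19.

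NBPF26 carried the peak with the highest −log10 p of the family in KD and in EV, at a low fold enrichment of 2.25 in KD and 2.09 in EV. It lay at 120824597 to 120827325 in KD, with a −log10 p of 14.4 (percentile 93.7 of its list), and at 120824279 to 120829777 in EV, with 26.0 (percentile 96.2). The list without genotype held its 1 NBPF peak within the same place, at 120824943 to 120825667. NBPF26 was covered to 2.31% in KD, 5.01% in EV and 0.613% in the list without genotype. NBPF1 had 1 peak in KD and 1 in EV at nearly the same place, and was covered to 0.856% and 1.35%. NBPF9 had 2.22% in EV and no KD peak, whereas NBPF11 had 2.37% in KD and no EV peak. NBPF3, NBPF8, NBPF12 and NBPF15 had no peak in any list.

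**Figure D5:**
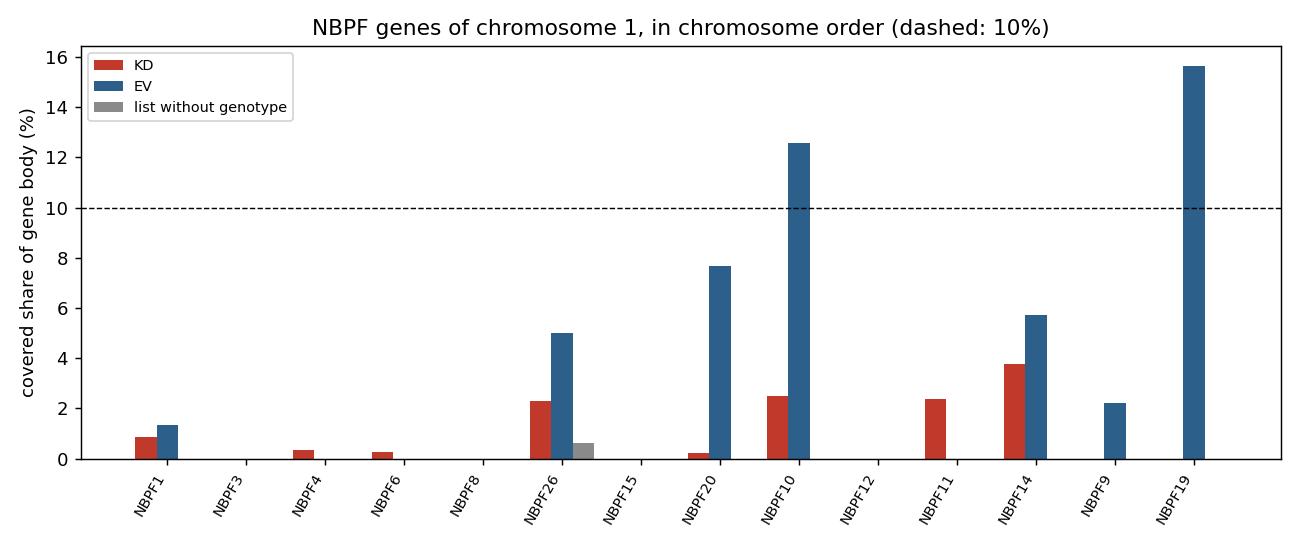
Covered share of the gene body, in percent, of the 14 NBPF genes in chromosome order, with a bar for KD (red, left), EV (blue) and the list without genotype (grey); the dashed line marks 10%. NBPF19 and NBPF10 pass the line in EV at 15.7% and 12.6%, and no KD bar reaches 4%.

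NBPF4 and NBPF6, a pair of inverted copies, each had a KD peak across the 5′ end of the annotated gene, where the genes face each other, and no EV peak. The peak spanned 108272741 to 108273261 at NBPF4 on the minus strand (521 bp, 173 bp of it in the gene) and 108421142 to 108421619 at NBPF6 on the plus strand (478 bp, 129 bp of it in the gene). The parts outside the genes were 348 and 349 bp. Fold enrichments were 6.17 and 5.00, and −log10 p was 9.45 and 9.21, at percentiles 87.4 and 86.8 of the KD list. The nearest EV peak was 105 kb from the first and 253 kb from the second, and the nearest peak of the list without genotype 109 and 156 kb away. By −log10 p, 1517 KD peaks were as strong as the one at NBPF4 or stronger, of which 1501 (98.9%, interval 98.3 to 99.4) overlapped an EV peak. It was among the 16 that did not. Reads of such a pair may be assigned to either gene, so the peaks may not be independent. Covered shares were small, 0.343% of NBPF4 and 0.256% of NBPF6.

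The RefSeq start windows of NBPF4 and NBPF6 belong to transcript starts inside the genes, 28.4 and 28.5 kb from these peaks, and held no peak. Their shared stretch of 244 bases differs at 2 bases, in capitals, and is shown because it gives the likeness of the pair. It lies at chr1:108244027-108244270 on the minus strand for NBPF4 and at chr1:108450093-108450336 on the plus strand for NBPF6:
NBPF4: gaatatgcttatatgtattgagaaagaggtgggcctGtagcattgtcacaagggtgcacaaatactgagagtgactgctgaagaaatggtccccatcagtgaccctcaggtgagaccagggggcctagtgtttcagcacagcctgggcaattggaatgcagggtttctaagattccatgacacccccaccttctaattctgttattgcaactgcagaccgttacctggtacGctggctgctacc
NBPF6: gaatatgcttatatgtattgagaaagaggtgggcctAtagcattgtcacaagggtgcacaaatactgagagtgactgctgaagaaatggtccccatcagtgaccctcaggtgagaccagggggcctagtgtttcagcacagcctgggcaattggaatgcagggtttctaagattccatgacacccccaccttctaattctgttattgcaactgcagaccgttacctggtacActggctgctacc

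NBPF peaks were too few to tell whether they overlapped between KD and EV as often as genic peaks in general. Among 11 KD peaks, 6 (54.5%, interval 23.4 to 83.3) overlapped one of EV, and among 32 EV peaks, 6 (18.8%, interval 7.21 to 36.4) overlapped one of KD. Over all peaks in protein-coding genes 78.3% of KD peaks and 27.9% of EV peaks did so. Both NBPF shares were lower, and the interval of each holds the share over all genes. The intervals count peaks as independent although several lie in the same gene, so they cannot show whether the shares are alike. The NBPF peaks of EV had a median −log10 p of 4.28, at percentile 40.6 of the EV list, which is below the 5.72 of USP17L peaks in the same list. The part of peak strength in this contrast was not tested. With EV held to as many of its strongest peaks as KD, NBPF bodies were covered to 1.00% in KD and 3.01% in EV, a ratio of 0.333, where all protein-coding genes had 0.541. Under a fold enrichment of at least 3 the ratio was 0.559, against 0.433.

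NBPF coverage in KD and EV lay over the genes more than over their surroundings. In the 50 kb on both sides of NBPF members the covered share was 0.192% in KD and 0.462% in EV, against 1.00% and 4.78% of the bodies. In the list without genotype bodies and flanks were close, at 0.0776% and 0.0981%.

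The 29 GOLGA6 and GOLGA8 genes of chromosome 15, spread from GOLGA6L6 at 20531856 to GOLGA6L4 at 84235773, had no peak over the body in KD or in EV. The exact interval for 0 of 29 reaches 11.9%, and 11.3% of all protein-coding genes had a peak in KD and 24.4% in EV. These shares were not matched for length, and shorter genes are touched by a peak less easily. The median length was 10212 bp for GOLGA6, 13730.5 bp for GOLGA8 and 24476.5 bp for all protein-coding genes. Their bodies add up to 468 kb. Peaks lay nearby in places: the closest was 0.609 kb from GOLGA8N in KD and 0.484 kb from it in EV. The median distance to the nearest peak was 117 kb in KD and 38.4 kb in EV, and 2 members in KD and 6 in EV had a peak within 10 kb. In the 50 kb flanks the covered share was 0.161% in KD and 0.964% in EV for GOLGA6, and 0.315% and 1.12% for GOLGA8.

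The only GOLGA peak over a member body was in the list without genotype, at GOLGA8G. It spanned 28532490 to 28533031 of chromosome 15, with an enrichment of 3.32-fold and −log10 p at 3.71, and covered 3.79% of the gene and 110 of the 300 bases of its start window. Of the 40 members with a start window it was the 1 with a peak there in any list. The nearest KD peak was 26.1 kb away and the nearest EV peak 32.5 kb. The window of GOLGA8G (chr15:28532922-28533221, minus strand) is shown with one of GOLGA8F (chr15:28378414-28378713, plus strand), which had no peak, to show how alike a window with a peak and one without were. Capitals mark the 2 bases at which they differ. The window of GOLGA8S is identical to that of GOLGA8F, and it had no peak either:
GOLGA8G: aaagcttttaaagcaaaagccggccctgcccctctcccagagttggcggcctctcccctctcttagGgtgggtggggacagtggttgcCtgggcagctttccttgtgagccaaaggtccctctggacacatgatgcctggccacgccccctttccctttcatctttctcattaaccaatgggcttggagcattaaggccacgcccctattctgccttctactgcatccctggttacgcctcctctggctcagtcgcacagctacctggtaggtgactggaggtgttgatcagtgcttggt
GOLGA8F: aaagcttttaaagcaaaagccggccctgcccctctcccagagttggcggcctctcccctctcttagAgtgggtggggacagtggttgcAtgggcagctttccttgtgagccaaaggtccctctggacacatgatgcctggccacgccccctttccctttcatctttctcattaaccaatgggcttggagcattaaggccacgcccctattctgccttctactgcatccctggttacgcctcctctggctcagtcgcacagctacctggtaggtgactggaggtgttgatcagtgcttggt

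Across the 13 GOLGA8 members with a window, 10 had another member's window at 95% identity or more in a global alignment, and GOLGA8J and GOLGA8T were identical. These counts use the first window of each member. For GOLGA8F that is not the window printed above, and it had 84.0% identity with the window of GOLGA8S. Of 15 GOLGA6 windows 9 had such a partner, and 3 pairs were identical, among them GOLGA6A and GOLGA6B. Of 12 NBPF windows 2 had one, NBPF8 and NBPF9 at 97.7%. Windows begin at each gene's own annotated start, so alike genes with shifted starts score low, as NBPF4 and NBPF6 did with 68.0%. Median identity was 88.6% among GOLGA8 windows, 72.1% among GOLGA6 windows and 48.9% among NBPF windows, and USP17L windows were not analysed here.

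The NBPF, GOLGA and USP17L genes were also set beside 55 genes picked by symbol, called single-copy relatives here. These were GOLGA1 to GOLGA5, GOLGA7, GOLGA7B, GOLGB1, PDE4DIP, CDK5RAP2 and the USP genes with a number alone. Their descent and copy number were not checked. None of them met the 10% criterion in any list, while 5 in KD, 29 in EV and 2 in the list without genotype had any peak. Over all protein-coding genes 1.43% met the criterion in KD and 2.62% in EV, and 11.3% and 24.4% had any peak. Of the relatives 9.09% had a peak in KD and 52.7% in EV. Longer genes are touched by a peak more easily, and these shares were not matched for length. The relatives' median length was 69769 bp, against 24476.5 bp for all protein-coding genes. Of the 43 members outside USP17L, likewise, 0 met the criterion in KD and 2 in EV. The relatives' bodies were covered to 0.0865% in KD and 0.886% in EV, against 0.199% and 0.682% for all protein-coding genes. The most covered in KD or EV were USP29, GOLGB1, which encodes the golgin giantin, and USP8, an endosomal deubiquitinase, with no KD peak and 3.65%, 3.20% and 2.77% in EV.

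Among 124 genes of 10 other copy families (TBC1D3, NPIPA, NPIPB, PRAMEF, SPDYE, FAM90A, POTE, RGPD, LRRC37A and NOTCH2NL), 3 (2.42%) met the criterion in KD, 8 (6.45%) in EV and 12 (9.68%) in the list without genotype. Over all protein-coding genes these shares were 1.43%, 2.62% and 0.742%, so the KD share lay near the background. The 21 FAM90A genes made up 3 of these in KD, 6 in EV and 12 in the list without genotype. The 3 genes most covered in KD or EV were all of this family and are 3011 bp long. Short genes meet the criterion more easily, and the shares above were not matched for length. Among protein-coding genes of 1 to 3 kb it was met by 6.68% in KD, 6.29% in EV and 2.56% in the list without genotype. FAM90A24 had 72.2% in KD, 76.7% in EV and 60.2% in the list without genotype. FAM90A13 had no KD peak, 34.4% in EV and 72.3% in the list without genotype, and FAM90A20 had none in KD, 29.8% in EV and 11.7% there. The highest share of any of the 124 genes in the list without genotype was 97.8%. The 3 named genes lie on chromosome 8 in the same region as the unmarked USP17L1, USP17L4, USP17L8 and USP17L3. TBC1D3, NPIPA, NPIPB, POTE, RGPD, LRRC37A and NOTCH2NL had no gene at 10% in any list.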

How the data were processed

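H3K9me3 was profiled by ChIP-seq, and the labels list 5 samples, 3 H3K9me3 libraries (KD, EV, WT) and 2 inputs, with 1 library per group. Reads were aligned with Bowtie2 and peaks called with MACS2 on GRCh38, per the submitters' processing notes. Versions, calling options, control libraries, filters and pooling were not given in the sources used here. Deposited files were 3 broad peak lists. Each peak's fold enrichment is a ratio over background from the authors' caller. Its −log10 p and, in KD and EV, its −log10 q come from the same caller as deposited. The deposited score is 10 times the −log10 q, cut to a whole number. For the list without genotype the −log10 q was taken from the score. The lowest −log10 q is 1.01 in KD and 1.01 in EV. Enrichments and ranks are each list's own.

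Gene bodies and start windows came from RefSeq (GRCh38.p14). Covered bases and overlaps (at least 1 bp) were computed with numpy 2.4.6 and pandas 2.3.3 in Python 3.11.15. On simulated data they gave the known bases for 200 of 200 genes and matched bedtools 2.31.1 for 2000 of 2000 regions. Intervals at 95% are exact Clopper-Pearson intervals from scipy 1.17.1 and cover counting over genes or peaks only. Windows were aligned with biopython 1.88, and plots drawn with matplotlib 3.10.9. For members with several windows the first was used, except in the printed stretches. Named genes were members at 10% in a list, the 3 per family with the largest KD minus EV difference, those with a peak over the start window, and in comparison lists the 3 most covered in KD or EV. Other members are named after their values were seen. Members and lists were chosen with earlier results of these data known, and the genes of 1 to 3 kb were added after values were seen. The alternatives were limits on −log10 q (for the list without genotype, through the score) or on fold, equal peak numbers, merging within 3 kb, 2 kb added around genes, other member sets and criteria, and other flanks. Identity between proteins was planned but not run here, and no input list was analysed here.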

Additional observations from a re-analysis of the deposited data

Results flagged for a closer look

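The list without genotype was used in no comparison of KD with EV, and it held signal at the members: 12 of 68 had 10% or more of the gene body under peaks, all of them USP17L genes of chromosome 4. Over all protein-coding genes the criterion was met by 0.742% in this list. The genotype of the list is not known, so the value was not read as that of a condition.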

How the results depend on the processing

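No paired analysis was possible because each group had 1 library. Counts of members at 10% were 12 in KD and 17 in EV, and KD stayed below EV except at a fold enrichment of at least 3 (8 in KD, 5 in EV) and with any overlap (22 and 22). At a −log10 q of at least 3 they were 4 and 9, and for members of at least 5 kb, which leaves out USP17L, 0 and 2. The covered share, 1.49% in KD and 4.43% in EV, was 1.01% and 3.07% at a −log10 q of at least 2, 0.535% and 2.24% at 3, 0.952% and 1.25% at a fold of at least 3, 1.59% and 5.22% with peaks within 3 kb merged, 2.19% and 4.81% with 2 kb added, and 0.669% and 3.18% for members of at least 5 kb. With equal peak numbers EV stood at 3.03%, and the median over members was 0% in KD and 0% in EV. Leaving out chromosome 8 or counting each member in full left both shares nearly as they were. Of EV peaks, 40.4% overlapped KD, and 57.1% did with equal peak numbers. The ratio of body to flank coverage, 2.07 in KD and 3.04 in EV, was 1.21 and 2.23 with 20 kb flanks and 2.76 and 3.58 with 100 kb flanks.

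The KD minus EV difference of USP17L bodies, −17.7 points, turned to 0.855 at a fold of at least 3. Single copies turned too: USP17L13 to 0.0628 points at both −log10 q limits, at that fold and with equal peak numbers; USP17L20 to 19.8 under the same settings; USP17L18 to 13.9 at a −log10 q of 3 and at that fold; USP17L5 to 1.26 at that fold; and USP17L28 to −30.5 at a −log10 q of 3. For each of these copies the limit removed the peak of the list that had been higher. Smaller differences changed sign too: USP17L22 (−5.08) to 86.7 at that fold and 8.89 with 2 kb added, NBPF14 (−1.95) to 3.16 at that fold, and USP17L24 (1.76) to −65.5 with merging and −42.6 with 2 kb added. The order of KD and EV at a single copy often rests on single peaks, and the unknown depth limits it.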
